A study of Mus musculus with 30 samples.

Results

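The 42 genes described here are imprinted genes of the mouse, and 42 of the 42 listed symbols were found among the 22477 genes of an RNA-seq table. They are known imprinted genes listed by symbol, and the list was made with earlier results of these data known. The genes lie in 18 loci. By the allele assigned in the list, 23 are paternally expressed, 14 are maternally expressed and 5 depend on the isoform. An assignment may not hold in every tissue, and it was not measured in these cells. Of the 42, 6 are long non-coding RNAs. Expression is given in FPKM, the number of sequenced fragments scaled to transcript length and to library size. The scaling to length lets levels be compared between genes. How library size was normalized between conditions is not stated. In at least 1 condition 40 of the genes reached 1 FPKM and 15 reached 100 FPKM. The exceptions were Zim1, a zinc finger gene of the Peg3 locus that stayed at or below 0.925 FPKM, and Asb4, an ankyrin repeat gene of the Peg10 locus that stayed at or below 0.151 FPKM.

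Genomic imprinting is the expression of a gene mainly from the copy inherited from the mother or from the father. It rests on DNA methylation that is set in the germ line at imprint control regions and is kept through the demethylation of the early embryo, and many imprinted genes act on the growth of the fetus and the placenta. In cultured pluripotent cells the level of several imprinted genes, among them H19 and the RNAs of the Dlk1-Dio3 locus, is known to vary between lines and culture media. The values here add up both alleles, so that the use of each allele was not measured.

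The cells were mouse secondary iPSCs, a line of induced pluripotent stem cells with transgenes for the factors OSKM (Oct4, Sox2, Klf4 and cMyc) that doxycycline (dox) switches on, GFP in place of an endogenous Nanog allele and a constitutive nuclear RFP. Polyadenylated RNA of 30 samples was sequenced, 2 samples for each of 15 conditions. A time course of 7 conditions followed the withdrawal of 2i/LIF at 0, 24, 36, 48, 60, 72 and 96 h. The name 2i/LIF stands for the pair of kinase inhibitors and the cytokine that hold cells in naive pluripotency. Per the study, the cells were kept in serum/LIF, held in 2i/LIF for 24 h and then differentiated in N2B27 medium. In the other 8 conditions the cells were differentiated for 0, 24, 48 or 96 h and were then re-seeded for 48 h in serum/LIF, either without dox (–dox) or with dox to induce OSKM (+dox). All 15 conditions carry the same transgenes and reporters and come from 1 line, which was maintained on CF1 mouse embryonic fibroblast (MEF) feeders. For the colony assay, the study's methods describe differentiation on gelatin and re-seeding onto CF1 MEFs. They do not say whether the RNA-seq samples were grown in the same way. The 0 h –dox cells were never withdrawn from 2i/LIF before they were re-seeded, and they differ from the 0 h cells in medium, in re-seeding and in time in culture, which cannot be told apart.

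Each condition has 1 value per gene, which combines both samples. There are therefore no replicate values, and no standard deviation, test or p-value is given. How many reads support any value is unknown. A gene was counted as higher or lower when 2 values stood 2-fold or more apart and the larger reached 1 FPKM, and "rose" and "fell" are used for such genes only. The counts of imprinted genes are set beside the share of all genes that met the same rule. Per condition, all genes together came to between 603278 and 832607 FPKM, and between 2756 and 5090 genes were listed at 0, with the fewest in the 24 h –dox and 0 h –dox conditions. Markers of pluripotency matched the label of the 0 h cells, with 227 FPKM for Nanog and 199 FPKM for Pou5f1, the gene of Oct4. However, 16 fibroblast markers also had their highest summed value there. This sum was 936 FPKM in the 0 h cells, 91.2 FPKM after 24 h and between 20.3 and 177 FPKM in the other 13 conditions. In bulk RNA, fewer cells of a type and less RNA per cell cannot be told apart.

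The promoters of several members are themselves known as imprint control regions that carry methylation on the maternal allele. The following promoter windows belong to 5 such genes whose expression changed. They run from 250 bases before to 50 bases after a RefSeq transcript start on GRCm38.p6 and are read on the strand of the gene, and of several windows of Mest and of Snrpn the first with a match is given. Capitals mark the motif TGCCGC on either strand, which reads GCGGCA on the opposite strand. When methylated at its CG it is the motif bound by Zfp57, a zinc finger protein that protects imprints.
Mest promoter (chr6:30737800-30738099, plus strand): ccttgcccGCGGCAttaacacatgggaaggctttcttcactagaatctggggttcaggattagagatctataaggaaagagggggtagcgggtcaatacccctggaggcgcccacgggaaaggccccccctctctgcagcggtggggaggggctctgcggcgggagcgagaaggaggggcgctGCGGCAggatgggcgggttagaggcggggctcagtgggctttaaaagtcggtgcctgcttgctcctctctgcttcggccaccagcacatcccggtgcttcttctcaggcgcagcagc
Nnat promoter (chr2:157559828-157560127, plus strand): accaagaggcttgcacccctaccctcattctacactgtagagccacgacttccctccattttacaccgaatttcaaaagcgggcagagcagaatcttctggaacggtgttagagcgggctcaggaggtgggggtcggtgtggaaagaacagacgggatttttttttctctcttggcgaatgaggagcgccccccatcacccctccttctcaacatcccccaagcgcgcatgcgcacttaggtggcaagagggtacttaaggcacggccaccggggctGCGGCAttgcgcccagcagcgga
Plagl1 promoter (chr10:13090582-13090881, plus strand): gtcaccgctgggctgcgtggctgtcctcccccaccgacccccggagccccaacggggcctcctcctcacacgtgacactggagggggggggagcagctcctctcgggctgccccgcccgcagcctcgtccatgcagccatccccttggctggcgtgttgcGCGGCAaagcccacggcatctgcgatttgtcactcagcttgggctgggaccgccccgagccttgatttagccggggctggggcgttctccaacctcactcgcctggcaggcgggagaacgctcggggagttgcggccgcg
Snrpn promoter (chr7:60005150-60005449, minus strand): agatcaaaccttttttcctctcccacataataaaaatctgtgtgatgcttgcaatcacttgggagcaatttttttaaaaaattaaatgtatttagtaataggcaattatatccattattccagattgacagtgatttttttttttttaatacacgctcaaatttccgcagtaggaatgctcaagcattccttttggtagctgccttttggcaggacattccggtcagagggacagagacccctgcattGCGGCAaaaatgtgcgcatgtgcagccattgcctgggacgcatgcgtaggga
Peg3 promoter (chr7:6730370-6730669, minus strand): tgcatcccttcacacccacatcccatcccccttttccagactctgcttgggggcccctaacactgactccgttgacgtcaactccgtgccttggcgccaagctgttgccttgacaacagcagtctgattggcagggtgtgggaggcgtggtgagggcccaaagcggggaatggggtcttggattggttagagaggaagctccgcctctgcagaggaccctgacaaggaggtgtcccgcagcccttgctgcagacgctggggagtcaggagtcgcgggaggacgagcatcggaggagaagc

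The Mest window held the motif 2 times, the Nnat, Plagl1 and Snrpn windows 1 time each, and the Peg3 window had no match. Promoter windows were at hand for 36 members, and not for H19, Rtl1, Peg10, Sgce, Cdkn1c and Impact. The motif was found in 13 of the 53 windows of these members (24.5%), which belonged to 12 genes, and in 3813 of the 32851 windows of all genes (11.6%). The members' windows also held more CG dinucleotides, a median of 15 against 7 in all windows. A match describes the letters of a window and not binding, and no test was made of the difference.

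Several members are also hosts of miRNAs. A total of 14 RefSeq hairpins lie within Mirg on its strand, 3 within Rian, and 1 each within H19, Igf2, Mest, Meg3, Rtl1 and Usp29. Impact was not searched for hairpins. The mature miRNAs of 3 hosts whose RNA changed over a wide range follow, with bases 2 to 8, the seed, in capitals. Their 6 seeds all differ, and the miRNAs themselves were not measured.
mmu-miR-675-3p (in H19, chr7:142577078-142577099, minus strand): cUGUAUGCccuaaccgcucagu
mmu-miR-675-5p (in H19, chr7:142577112-142577133, minus strand): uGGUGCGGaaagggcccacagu
mmu-miR-483-3p (in Igf2, chr7:142654932-142654952, minus strand): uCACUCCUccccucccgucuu
mmu-miR-483-5p (in Igf2, chr7:142654968-142654989, minus strand): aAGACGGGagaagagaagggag
mmu-miR-335-5p (in Mest, chr6:30741314-30741336, plus strand): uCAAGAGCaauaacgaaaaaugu
mmu-miR-335-3p (in Mest, chr6:30741354-30741375, plus strand): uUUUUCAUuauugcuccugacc

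Over the time course, 31 of the 40 members that reached 1 FPKM in some condition changed at least 2-fold between some pair of timepoints (77.5%), compared with 60.7% of all genes. Without the 0 h cells, 23 of 39 members changed (59.0%), compared with 51.7% of all genes. Among the 31 that changed, the highest value was at 96 h for 11 and at 0 h for 7, and the lowest was at 0 h for 16. The same count was not made over all genes, so that it is not shown to be particular to the members. The other 9 members stayed within 2-fold at all 7 timepoints. They were Tssc4, Ndn, Mkrn3, Ube3a, Blcap, Impact, Zrsr1, H13 and Zdbf2.

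At 96 h compared with 0 h, 19 of 38 members were higher (50.0%) and 6 were lower (15.8%), while 16.8% of all genes were higher and 16.4% were lower. Among imprinted genes outside the list of members, 5 of 22 were higher and 6 were lower. The excess of higher genes is therefore shown for the listed members only. The median log2 ratio was 0.82 over the members and -0.02 over all genes, while between 0 and 24 h it was 0.03 over the members. By allele, 11 of the 21 measured paternally expressed members rose and 4 fell, and 6 of the 12 maternally expressed members rose and 2 fell. On the first day, between 0 and 24 h, 10 of 36 members rose (27.8%) and 7 fell (19.4%), compared with 8.64% and 14.3% of all genes. From 24 to 96 h, 12 of 38 rose (31.6%) and 2 fell (5.26%), compared with 20.5% and 16.3% of all genes. The 3 comparisons share conditions with each other. Beside the first-day changes, 14 of 15 fibroblast markers with 1 FPKM were also lower at 24 h than at 0 h and 1, Thy1, was higher. Their part in the members' changes was not tested.

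**Figure D1:**
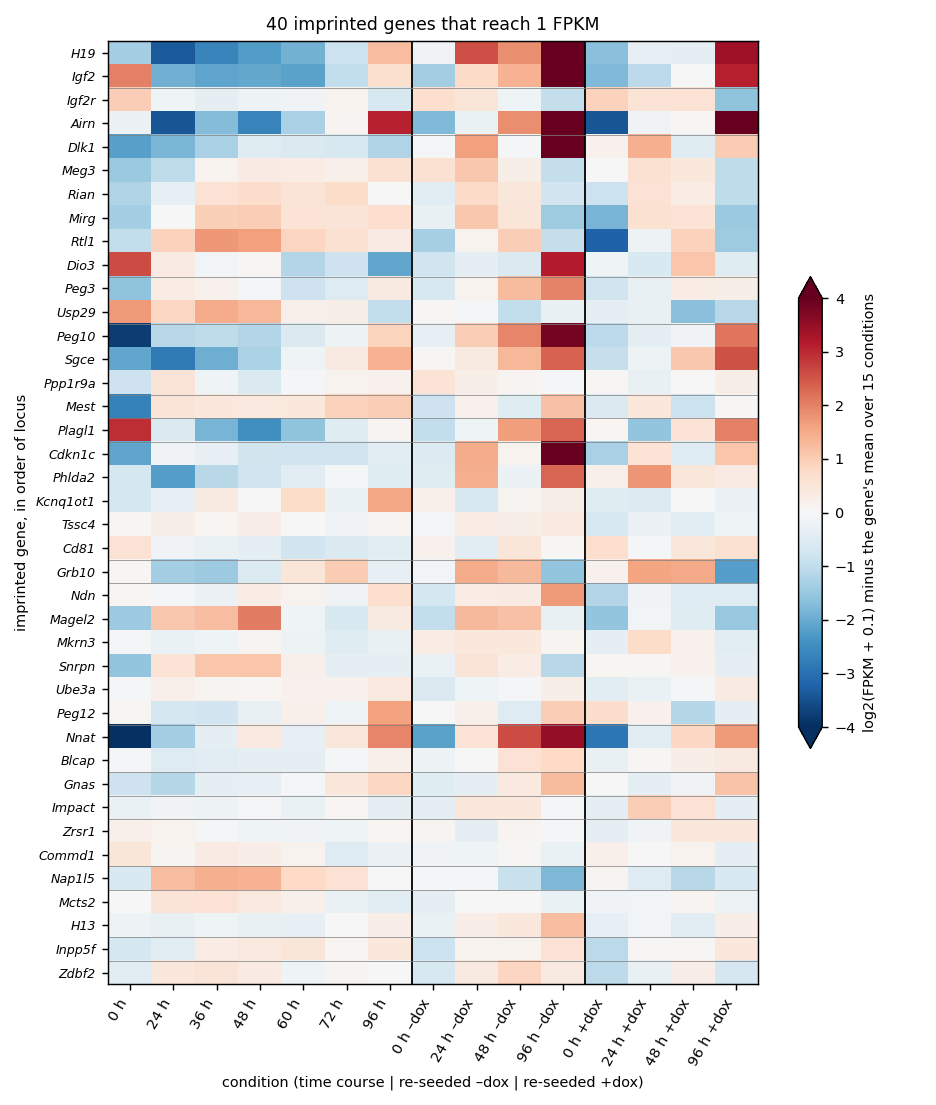
Each row is an imprinted gene, in order of locus, and each column a condition, with 1 value per condition. Color gives log2(FPKM + 0.1) minus the gene's mean over the 15 conditions, and values past 4 or -4 have the end colors. The 96 h –dox column holds the highest value of 16 of the 40 genes, a count not made over all genes. The 0 h column differs from the later timepoints in many rows.

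The Igf2-H19 locus pairs a fetal growth factor with a maternally expressed long non-coding RNA. H19 lies at chr7:142575529-142578143 and Igf2 at chr7:142650766-142666816 (mm10), both on the minus strand and 72622 bp apart. At 0, 24, 36, 48, 60, 72 and 96 h of withdrawal, H19 stood at 82.4, 20.6, 33.4, 44.8, 56.8, 116 and 491 FPKM. It fell 4.01-fold on the first day and then rose 23.9-fold, with each timepoint above the one before. Igf2 stood at 43.5, 2.75, 2.43, 2.51, 2.37, 5.35 and 16.7 FPKM at the same times. Its level fell 15.8-fold on the first day, was between 2.37 and 2.75 FPKM up to 60 h and rose 6.07-fold between 24 and 96 h, but at 96 h was still 2.61-fold below 0 h. The level of H19 was 1.89 times that of Igf2 at 0 h and 29.4 times at 96 h.

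Igf2r encodes the receptor that clears Igf2 from the cell surface, and Airn is the paternally expressed RNA that runs antisense to it. Their annotated spans overlap on opposite strands at chr17:12682406-12769664 and chr17:12741311-12860136. Whether strand was used in counting is not stated, so that reads of the shared stretch may not be told apart. Igf2r fell from 20.8 FPKM at 0 h to 9.26 at 24 h, was between 7.94 and 11.5 from 36 to 72 h and reached 6.69 at 96 h, 3.11-fold below 0 h. Airn was at 0.798 FPKM in the 0 h cells, was listed at 0 after 24 h, stayed at or below 0.329 up to 60 h and reached 1.05 and 8.81 FPKM after 72 and 96 h. The antisense RNA was therefore detected above 1 FPKM only at the last 2 timepoints, when Igf2r was at 11.5 and 6.69 FPKM.

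The Dlk1-Dio3 locus on chromosome 12 holds 3 maternally expressed non-coding RNAs and 3 paternally expressed coding genes. Over the 7 timepoints in order, Meg3 stood at 58.1, 81.0, 179, 205, 202, 187 and 249 FPKM. Rian, a host of small nucleolar RNAs, stood at 127, 233, 431, 476, 416, 483 and 288 FPKM. Mirg, a host of miRNAs, stood at 15.3, 40.3, 76.5, 79.4, 57.7, 56.6 and 63.2 FPKM. All 3 were lowest at 0 h and rose by 96 h, Meg3 4.29-fold, Mirg 4.12-fold and Rian 2.27-fold. Rian and Mirg had reached most of their rise by 36 h, and Rian at 96 h was below its level from 36 to 72 h.

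Of the paternally expressed genes of this locus, Rtl1 and Dlk1 were also lowest at 0 h and Dio3 was highest at that time. Rtl1, a retrotransposon-derived gene used in the placenta, rose from 2.44 FPKM at 0 h to 16.9 at 36 h and came down to 6.21 at 96 h. Dlk1, a Notch ligand-like membrane protein, was between 0.737 and 2.63 FPKM throughout and 2.13-fold higher at 96 h than at 0 h, which was below 2-fold with 1 or 0.1 FPKM added to both values. Dio3, the deiodinase that inactivates thyroid hormone, fell from 5.02 FPKM in the 0 h cells to 0.955 after 24 h and 0.102 after 96 h. The last of these values is so low that its ratio to 0 h, 49.1-fold, is poorly determined, with log2 ratios of -5.62 as reported and -2.45 with 1 FPKM added.

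Peg10 and Sgce are paternally expressed neighbors whose starts lie 98 bp apart on opposite strands of chromosome 6. Peg10 is a retrotransposon-derived gene needed for the placenta, and Sgce encodes a membrane protein of the sarcoglycan family. Over the 7 timepoints Peg10 stood at 9.42, 61.7, 65.6, 58.4, 89.2, 113 and 242 FPKM, and Sgce at 4.23, 2.47, 4.65, 7.54, 16.2, 23.5 and 47.9 FPKM. The neighbors rose 25.7-fold and 11.3-fold by 96 h but with different timing, since Peg10 rose 6.54-fold on the first day and Sgce did not. The ratio of Peg10 to Sgce was 2.23, 25.0 and 5.05 after 0, 24 and 96 h. Ppp1r9a, an actin-binding protein of the same locus, rose 2.05-fold from 3.37 to 6.93 FPKM between 0 and 96 h, which was below 2-fold with 1 FPKM added.

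Among the genes whose promoter windows are given above, Mest, Nnat, Peg3 and Snrpn were lowest at 0 h and Plagl1 was highest at that time. Mest, a hydrolase-fold protein, stood at 6.60, 61.6, 58.2, 56.8, 57.5, 81.9 and 85.3 FPKM over the 7 timepoints. It rose 9.34-fold on the first day and was 12.9-fold above 0 h at 96 h. Nnat, a small membrane protein encoded within an intron of Blcap, stood at 0.973, 9.0, 18.3, 30.9, 18.6, 32.0 and 90.8 FPKM. It rose 93.4-fold by 96 h from a low starting value, with log2 ratios of 6.55 as reported and 5.54 with 1 FPKM added, while Blcap stayed between 9.45 and 15.8 FPKM.

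Peg3, a zinc finger protein, stood at 25.7, 98.4, 89.0, 77.1, 44.3, 55.8 and 101 FPKM over the 7 timepoints, with a low at 60 h between highs at 24 and 96 h. Usp29, a ubiquitin protease gene that starts 146 bp from Peg3 on the opposite strand, fell from 2.09 to 0.244 FPKM between 0 and 96 h, with log2 ratios of -3.10 as reported and -1.31 with 1 FPKM added. Snrpn, a spliceosomal protein gene of the Prader-Willi locus, stood at 58.1, 253, 376, 374, 197, 132 and 133 FPKM, with its highest values at 36 and 48 h. Of the others in that locus, Ube3a, a ubiquitin ligase, lay between 12.3 and 16.8 FPKM, and Ndn lay between 5.19 and 9.74 FPKM. Magel2 exceeded 1 FPKM only at 48 h, with 1.23 FPKM, and Peg12 was highest at 96 h, with 3.61 FPKM.

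Plagl1, a zinc finger transcription factor also called Zac1, was 1 of 3 paternally expressed members that fell on the first day, while 7 of the 19 measured rose. Over the 7 timepoints it stood at 52.8, 4.44, 1.78, 1.15, 2.10, 4.77 and 7.22 FPKM. The fall on the first day was 11.9-fold, and after 48 h the values went up again. Igf2, Dio3, Plagl1, H19, Igf2r, Grb10 and Phlda2 were the 7 members that fell on the first day, when 14 of 15 fibroblast markers fell. In the 0 h –dox cells, where the fibroblast sum was also low, Igf2, Dio3 and Plagl1 were again lower than in the 0 h cells. H19 was 2.29-fold higher there, and Igf2r, Grb10 and Phlda2 were within 2-fold.

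In the Kcnq1 domain, Cdkn1c, the cyclin-dependent kinase inhibitor p57, rose from 1.33 to 5.49 FPKM on the first day and was at 4.55 FPKM after 96 h. Phlda2, which restrains growth of the placenta, stood at 29.4, 10.3, 44.7 and 33.9 FPKM after 0, 24, 72 and 96 h. The tetraspanin Cd81 fell 2.05-fold from 243 to 118 FPKM, a change that was below 2-fold when all conditions were scaled to the same sum. Kcnq1ot1, the long non-coding RNA of the domain's control region, stayed below 1 FPKM to 72 h and was at 1.28 FPKM at 96 h, a rise that was below 2-fold with 1 FPKM added. Grb10, an adaptor of insulin and growth factor receptors, stood at 8.15, 2.78, 16.1 and 6.27 FPKM after 0, 36, 72 and 96 h.

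Of the remaining loci, Gnas, the stimulatory G protein alpha subunit, rose 3.12-fold from 43.7 to 136 FPKM between 0 and 96 h. Inpp5f, an inositol phosphatase, rose 2.22-fold to 11.3 FPKM. Nap1l5, a retrogene, was above 1 FPKM from 24 to 72 h and peaked at 2.05 FPKM after 36 h. The retrogenes Mcts2 and Zrsr1 lie within H13 and Commd1, and reads may be shared with these hosts and with the parent genes of the retrogenes. Mcts2 stood between 37.9 and 76.3 FPKM, H13 between 12.0 and 18.3, Zrsr1 between 8.16 and 10.6 and Commd1 between 111 and 223 FPKM.

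**Figure D2:**
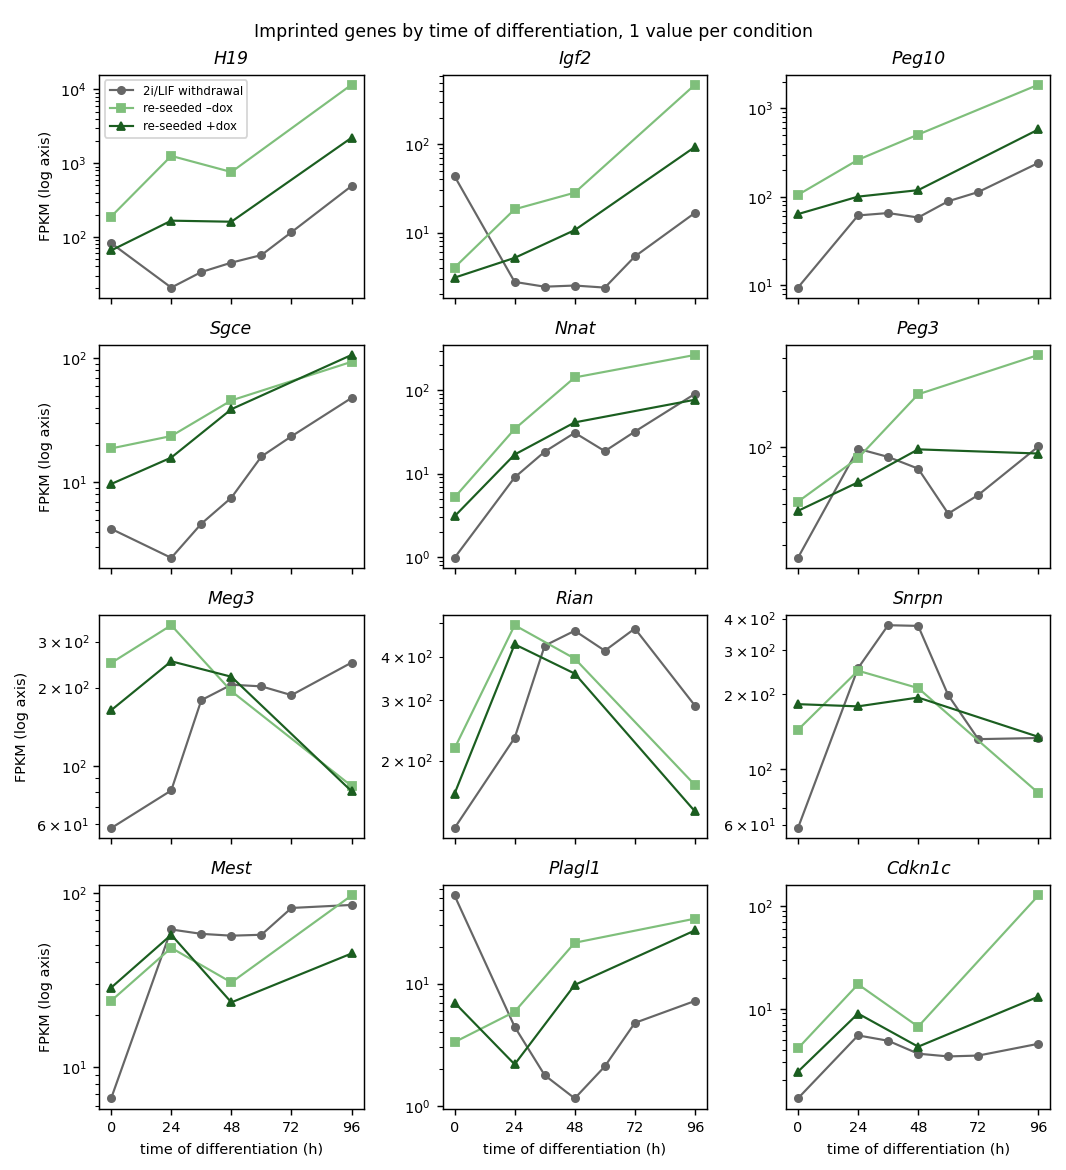
Each panel gives the FPKM of an imprinted gene, on a log axis with its own range, against the time of differentiation in h for 2i/LIF withdrawal (grey circles), re-seeded –dox cells (light green squares) and re-seeded +dox cells (dark green triangles), with 1 value per condition. In the –dox cells H19 reaches 11602 FPKM and Peg10 1855 FPKM at 96 h, while Meg3 and Rian are lower at 96 h than at 0 h.

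The undifferentiated cells in serum/LIF (0 h –dox) were compared with those in 2i/LIF (0 h). Of 36 members, 11 were higher (30.6%) and 4 were lower (11.1%), compared with 12.0% and 10.1% of all genes. The median log2 ratio was -0.07 over the members and -0.01 over all genes. Peg10 was at 105 FPKM in serum/LIF and 9.42 in 2i/LIF, 11.2-fold higher, Meg3 at 248 and 58.1, 4.28-fold higher, and Sgce at 18.8 and 4.23, 4.44-fold higher. Further members that were higher in serum/LIF were Nnat, Dlk1, Mest, Cdkn1c, Ppp1r9a, Snrpn, H19 and Mirg. Plagl1 was at 3.32 FPKM in serum/LIF and 52.8 in 2i/LIF, 15.9-fold lower, and Igf2 was at 4.01 and 43.5, 10.9-fold lower. Dio3 and Usp29 were the other members that were lower. Rian, the neighbor of Meg3, was at 217 FPKM in serum/LIF and 127 in 2i/LIF, within 2-fold. The fibroblast markers summed to 20.3 FPKM in the serum/LIF cells and 936 FPKM in the 2i/LIF cells, and 14 of 15 were lower in serum/LIF. Their part in the lower values was not tested.

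After return to serum/LIF without dox, the members were compared by how long the cells had been differentiated. From 48 h, 13 of 35 members were higher than from 0 h (37.1%) and 0 were lower, compared with 15.1% and 17.4% of all genes. From 96 h, 20 of 36 were higher (55.6%) and 4 were lower (11.1%), compared with 21.5% and 21.7% of all genes. Among imprinted genes outside the list of members, 7 of 20 were higher from 96 h and 6 were lower. The median log2 ratio to 0 h –dox was 0.78 over the members from 48 h and 1.02 from 96 h, and -0.02 and -0.01 over all genes. Both comparisons share the 0 h –dox cells. At 96 h, 13 of 19 members assigned as paternally expressed were higher and 0 were lower. Of 12 assigned as maternally expressed, 3 were higher and 3 were lower. Members of a locus, such as Meg3 and Mirg among the lower ones, are not independent of each other, and allele use was not measured. Of the 42 members, 17 had their highest value of all 15 conditions in the 96 h –dox cells. The share of all genes that were highest there was not counted.

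H19 stood at 189 FPKM in the –dox cells from 0 h, 1256 from 24 h, 759 from 48 h and 11602 from 96 h. The last was the highest value of all 22477 genes in that condition, and H19 made up 71.0% of the summed FPKM of the 42 members. The members together held 2.42% of all FPKM there and 0.16% at 0 h of the time course. Igf2 stood at 4.01, 18.3, 28.3 and 474 FPKM. From 0 to 96 h, H19 rose 61.4-fold and Igf2 118-fold, so that the level of H19 was 47.1 times that of Igf2 in the cells from 0 h and 24.5 times in those from 96 h.

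Members of the Peg10 and Kcnq1 loci were also high in the 96 h –dox cells. Peg10 stood at 105, 263, 506 and 1855 FPKM in the –dox cells from 0, 24, 48 and 96 h, and Sgce at 18.8, 23.6, 45.8 and 93.6 FPKM. Phlda2 stood at 33.6, 131, 40.5 and 241 FPKM, and Cdkn1c at 4.10, 17.3, 6.69 and 128 FPKM. The latter pair shared a dip in the cells from 48 h, and rose 7.17-fold and 31.2-fold between 0 and 96 h. Plagl1 stood at 3.32, 5.89, 21.7 and 34.1 FPKM, higher at each later time.

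Nnat stood at 5.17, 34.4, 143 and 266 FPKM and Peg3 at 51.3, 87.8, 192 and 312 FPKM in the –dox cells from 0, 24, 48 and 96 h. Mest stood at 24.0, 48.3, 30.6 and 96.6 FPKM, and Ndn at 3.69, 7.64, 7.67 and 20.3 FPKM. All 4 were highest from 96 h. Airn rose from 0.211 to 29.3 FPKM between 0 and 96 h, and Igf2r fell 3.08-fold from 16.7 to 5.42 FPKM. Grb10 was at 7.30, 22.0, 19.2 and 2.55 FPKM, so that it was high in the middle of the series and 2.87-fold lower at 96 h than at 0 h.

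Genes of the Dlk1-Dio3 locus moved in opposite directions in the 96 h –dox cells. Dlk1 stood at 3.55, 11.7, 3.48 and 88.8 FPKM and Dio3 at 0.383, 0.559, 0.467 and 7.36 FPKM in the cells from 0, 24, 48 and 96 h. Meg3 stood at 248, 347, 194 and 84.2 FPKM, Rian at 217, 494, 395 and 169.8 FPKM and Mirg at 32.6, 84.4, 56.0 and 14.7 FPKM. Between 0 and 96 h Dlk1 rose 25.0-fold, while Meg3 fell 2.95-fold and Mirg 2.22-fold. Rian, at 217 and 169.8 FPKM, and Rtl1, at 1.90 and 2.51 FPKM, stayed within 2-fold.

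Markers of some other cell types were higher in the 96 h –dox cells than in the 0 h –dox cells. Of 6 trophoblast markers, 5 rose and 1 fell in the –dox cells between 0 and 96 h, and their sum went from 10.3 to 214 FPKM. Krt7 went from 1.69 to 158 FPKM, Hand1 from 3.98 to 38.2, Gata3 from 2.08 to 13.3, Elf5 from 0.0859 to 3.44 and Cdx2 from 0.291 to 1.27, while Eomes went from 2.17 to 0.236 FPKM. Of 13 fibroblast markers, 10 rose and 1 fell, and the sum of all 16 went from 20.3 to 177 FPKM. Among 8 markers of extraembryonic endoderm, 3 of the 4 with 1 FPKM rose and 0 fell, and their sum was 41.8 FPKM. Of 6 neurectoderm markers 4 rose and 0 fell, and none of 6 mesoderm markers reached 1 FPKM in either condition. All 8 pluripotency markers fell. The part of such cells in the values of the imprinted genes was not tested.

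**Figure D3:**
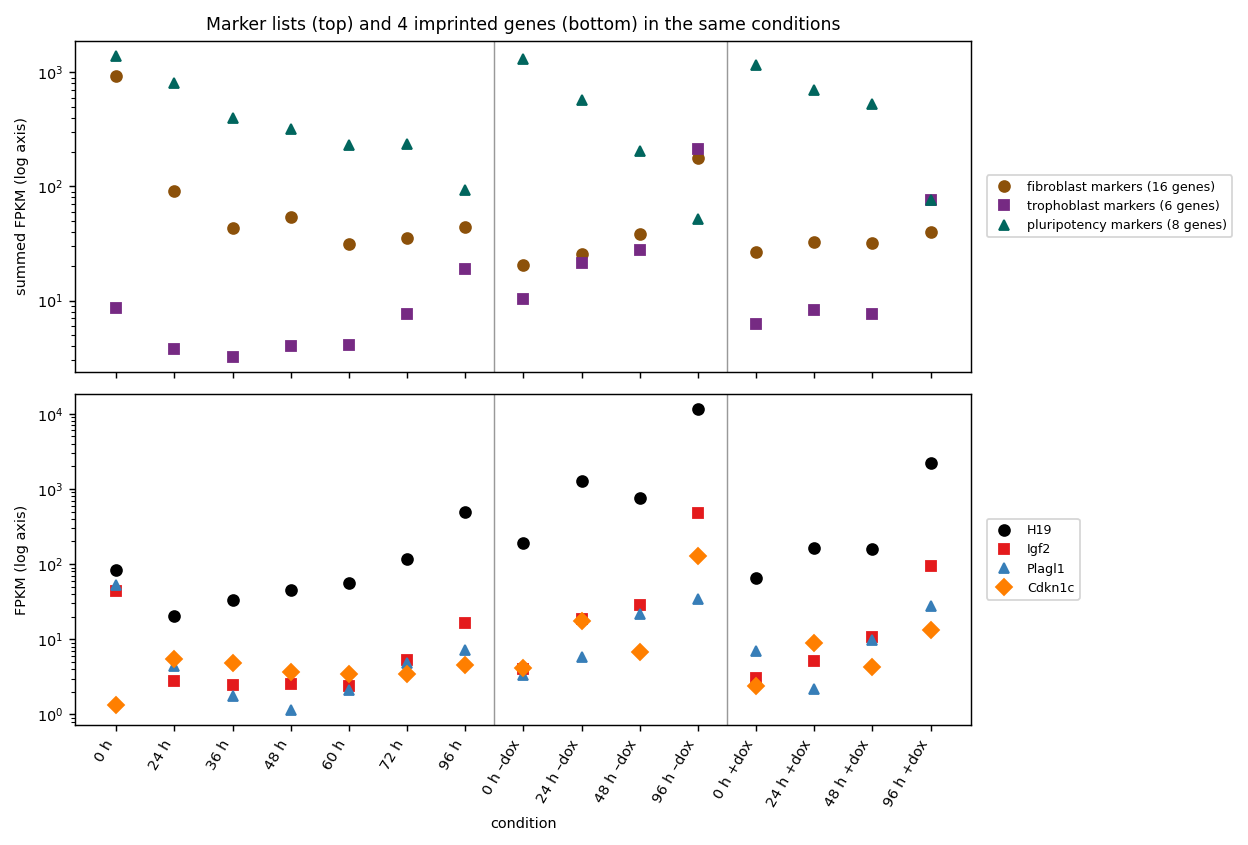
The top panel gives the summed FPKM of the fibroblast, trophoblast and pluripotency markers, and the bottom panel the FPKM of H19, Igf2, Plagl1 and Cdkn1c, in each of the 15 conditions on log axes, with 1 value per condition. The fibroblast markers reach 936 FPKM at 0 h, where Igf2 and Plagl1 are also high in the time course. The trophoblast markers reach 214 FPKM in the 96 h –dox cells, of which Krt7 holds 158 FPKM. H19, Igf2 and Cdkn1c are highest in that condition.

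Next, the +dox cells were compared with the –dox cells of the same differentiation time, which asks how the members respond to OSKM. The values of Pou5f1 were 425, 262, 204 and 9.95 FPKM with dox and 360, 213, 72.6 and 2.63 FPKM without it, after 0, 24, 48 and 96 h of differentiation. Sox2 was at 122, 121, 87.8 and 19.6 FPKM with dox and 224, 103, 43.4 and 16.3 without it, and Klf4 at 66.7, 14.2, 14.6 and 11.6 with and 84.8, 10.4, 4.68 and 11.4 without. Myc was at 18.7, 22.4, 18.7 and 36.1 FPKM with dox and 24.5, 44.3, 35.9 and 57.6 without it. After 0 h Sox2, Klf4 and Myc thus had lower values with dox, and Myc had lower values with dox at all 4 times. After 96 h only Pou5f1 was 2-fold or more higher with dox. Whether transgene reads are part of these values is not stated. For the cells from 0 h, 1 of 34 members was higher with dox (2.94%) and 3 were lower (8.82%), compared with 3.62% and 5.61% of all genes. When all conditions were scaled to the same sum of FPKM, 0 were higher and 4 were lower. For the cells from 24 h, 0 of 34 were higher and 5 were lower (14.7%), compared with 2.87% and 3.4% of all genes. For 48 h, 1 of 35 was higher (2.86%) and 6 were lower (17.1%), compared with 6.56% and 6.46%. For 96 h, 0 of 36 were higher and 13 were lower (36.1%), compared with 6.67% and 11.1%. The median log2 ratio over the members was -0.20, -0.28, -0.24 and -0.52 at the 4 times, and between -0.02 and 0.05 over all genes.

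H19 was lower with dox at each of the 4 times. It stood at 65.6 FPKM with and 189 without dox after 0 h, 166 and 1256 after 24 h, 161 and 759 after 48 h, and 2214 and 11602 after 96 h. The differences were 2.88-fold, 7.55-fold, 4.72-fold and 5.24-fold. H19 with dox after 96 h ranked 60 among all genes. Igf2 was within 2-fold after 0 h, at 3.08 FPKM with and 4.01 without dox, and was lower at the later times, at 5.16 and 18.3, 10.7 and 28.3, and 93.5 and 474 FPKM.

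Peg10 and Nnat also were lower with dox at 24, 48 and 96 h. Peg10 stood at 101 FPKM with and 263 without dox after 24 h, 119 and 506 after 48 h, and 578 and 1855 after 96 h. Its neighbor Sgce stayed within 2-fold at all 4 times and was at 106 FPKM with and 93.6 without dox after 96 h. Nnat stood at 16.9 and 34.4, 41.3 and 143, and 77.2 and 266 FPKM at these times, and the difference after 24 h was below 2-fold with 1 FPKM added. In contrast, Blcap, the host of Nnat, was within 2-fold at all 4 times, with 17.6 and 23.6 FPKM after 96 h.

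The other 9 members that were lower with dox after 96 h of differentiation did not reach 2-fold lower at the earlier times. Some came close, such as Peg3, 1.97-fold lower after 48 h, and Cdkn1c, 1.93-fold lower after 24 h. Others went the other way, such as Phlda2, 1.6-fold higher after 48 h, and Dio3, which was called higher at that time. Cdkn1c was at 13.1 FPKM with and 128 without dox, 9.74-fold lower, and Dlk1 was at 7.59 and 88.8 FPKM, 11.7-fold lower. Dio3 was at 0.508 and 7.36 FPKM, with log2 ratios of -3.86 as reported and -2.47 with 1 FPKM added. Phlda2 was at 59.1 and 241 FPKM, Ndn at 4.22 and 20.3, Peg3 at 92.8 and 312, and Mest at 44.9 and 96.6. The others that were lower were Peg12, at 0.861 and 2.30 FPKM, and Zdbf2, at 5.24 and 11 FPKM, both of which were within 2-fold with 1 FPKM added. The 13 members that were lower were 10 of the 19 measured paternally expressed members and 3 of the 12 maternally expressed ones. Of all genes, 11.1% were lower.

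Other members that were high in the 96 h –dox cells were within 2-fold of that level with dox. Airn was at 35.7 FPKM with and 29.3 without dox, Gnas at 172 and 184, Plagl1 at 27.3 and 34.1, and Inpp5f at 11.3 and 12.5. The non-coding RNAs of the Dlk1-Dio3 locus were also close, with Meg3 at 80.4 and 84.2 FPKM, Rian at 142 and 169.8, and Mirg at 14.2 and 14.7. No replicate values are at hand to give an interval for these ratios. In the cells from 0 h, Mirg was 3.0-fold lower with dox, at 10.9 and 32.6 FPKM, and Rtl1 was lower, at 0.438 and 1.90 FPKM, with log2 ratios of -2.12 as reported and -1.01 with 1 FPKM added.

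Marker sums differed along with these values. After 96 h the trophoblast markers summed to 76.6 FPKM with and 214 FPKM without dox, with 4 of 5 lower and 0 higher. Krt7 held most of both sums, at 65.9 FPKM with and 158 FPKM without dox. The fibroblast markers summed to 40.0 and 177 FPKM, with 10 of 13 lower and 1 higher. The pluripotency markers summed to 75.6 and 51.3 FPKM after 96 h, with 4 of 8 higher and 2 lower, and to 526 and 205 FPKM after 48 h, with 6 of 8 higher and 0 lower. This list includes Pou5f1 and Sox2, genes of factors that dox itself induces, and both were among those higher after 48 h. Whether the dox differences of the imprinted genes lie in cells with any of these markers was not tested.

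**Figure D4:**
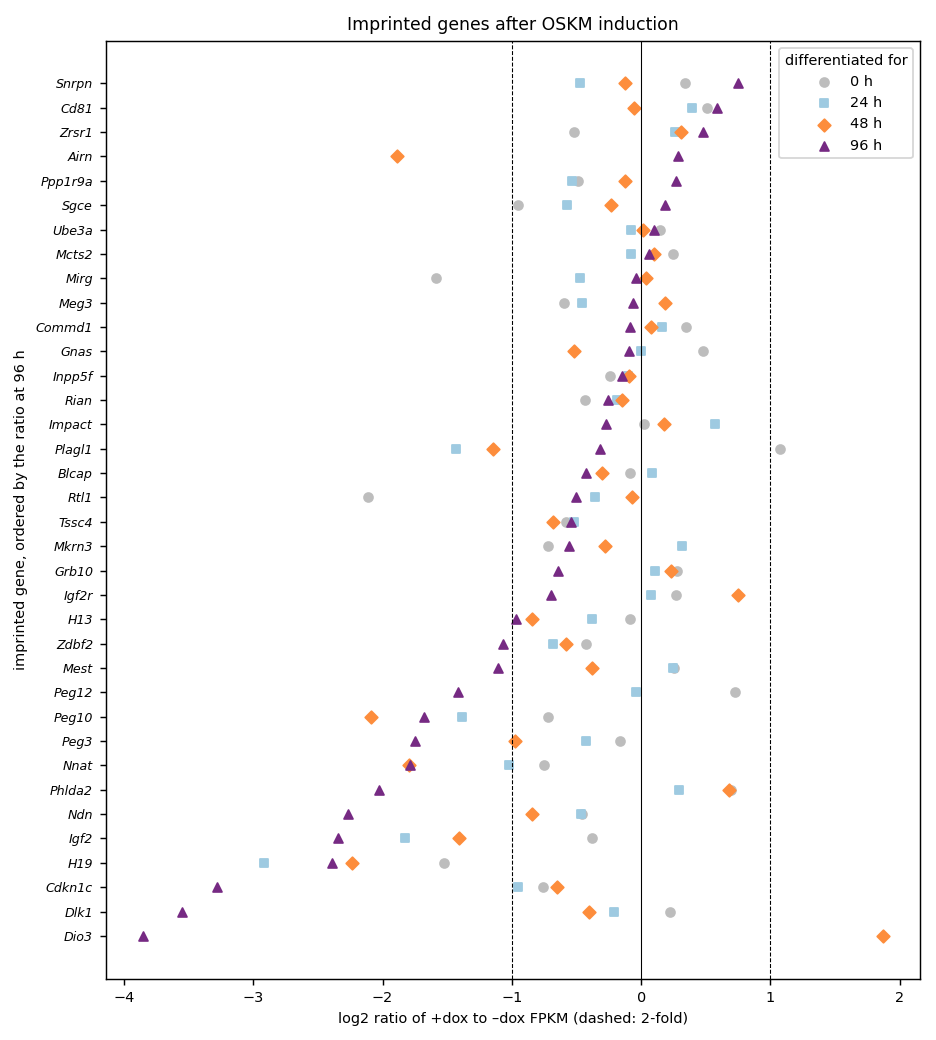
Each row is an imprinted gene and each mark the log2 ratio of its FPKM with dox to that without dox after 0, 24, 48 or 96 h of differentiation, with 1 value per condition. Genes below 1 FPKM in both values of a comparison have no mark, genes are ordered by the ratio at 96 h, and the dashed lines are 2-fold. At 96 h, 13 of 36 marks lie past the left line and 0 past the right line, with Dio3, Dlk1 and Cdkn1c farthest to the left.

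The RNA of genes whose proteins are known to maintain imprints was measured in the same samples, and the proteins were not. The list has 10 genes, of which 6 changed at least 2-fold within the time course, a share close to the 60.7% of all genes. Zfp57, which binds the motif of the promoter windows, was at 139, 171 and 32.6 FPKM after 0, 24 and 96 h. Its level was 287 FPKM in the 0 h –dox cells and 18.4 FPKM in the 96 h –dox cells. Dppa3, which protects methylation in the early embryo, was at 168, 13.6 and 2.42 FPKM at these times. Trim28, the cofactor of Zfp57, was at 1297, 2024 and 853 FPKM, and Dnmt1, the maintenance methyltransferase, at 63.9, 72.5 and 54.9 FPKM. At 96 h compared with 0 h, 2 of the 10 were lower and 0 were higher, beside 16.4% and 16.8% of all genes. In the –dox cells 4 were lower and 0 were higher after 96 h than after 0 h, beside 21.7% and 21.5%.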

How the data were processed

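RNA-seq of polyadenylated RNA was measured in 30 samples, 2 for each of 15 conditions, grouped by the sample labels. Per the study's methods and the submitters' processing notes, the authors mapped reads to mm10 with TopHat2 2.0.14, used Cufflinks 2.2.1 to quantify transcripts of 6 biotypes and 200 bp or longer in Gencode M4, and combined the 2 samples of a condition with Cuffdiff. The deposited values are FPKM, 1 per gene and condition. The table also holds the authors' calls of response to dox in 5 columns, which were not used. Its library normalization and use of strand are not given in the sources used here.

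The values were used as deposited. Ratios had no pseudocount and no fold is given against a value listed at 0. A gene was called at 2-fold if the larger value reached 1 FPKM, by the same rule for all genes. With 1 combined value per condition, no test was run, and the precision that depth gives cannot be stated. Median log2 ratios cover genes above 0 in both conditions with 1 FPKM in the higher. The script was tested on simulated data. Python 3.11.15, numpy 2.4.6, pandas 2.3.3 and matplotlib 3.10.9 were used. Positions are from Gencode M21 on mm10 (42 of 42 members found), and promoter and miRNA sequences from RefSeq on GRCm38.p6.

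The members and all lists (other imprinted genes, imprint maintenance, and markers of fibroblasts, pluripotency, extraembryonic endoderm, trophoblast, mesoderm and neurectoderm) were chosen with earlier results of these data known. Any member could be named, with values where it reached 1 FPKM, as could the 5 other imprinted genes with the highest value, all genes of the remaining lists and the 4 OSKM genes. The alternatives were other minimum values, fold changes, pseudocounts and scalings, the time course without 0 h, the members without long non-coding and overlapping genes and, added after the values were seen, 24 h as the start. The ChIP-seq, ATAC-seq and methylation data of the study were not used here.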

Additional observations from a re-analysis of the deposited data

Results flagged for a closer look

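Members whose response to dox had opposite directions at different times of differentiation were Dio3 and Plagl1. The log2 ratio of +dox to –dox was 1.87 for Dio3 after 48 h (1.71 and 0.467 FPKM) and -3.86 after 96 h (0.508 and 7.36 FPKM). For Plagl1 it was 1.08 after 0 h (6.99 and 3.32 FPKM), -1.43 after 24 h (2.18 and 5.89 FPKM) and -1.15 after 48 h (9.78 and 21.7 FPKM). The call of Dio3 after 48 h was below 2-fold with 1 FPKM added (log2 0.89), and that of Plagl1 after 0 h was below it with 1 FPKM added (0.89) and with scaling to the same sum of FPKM (0.85). With 1 value per condition the differences between these times were not tested.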

How the results depend on the processing

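No paired analysis was possible because each column combines both samples of a condition and no test was run, which also kept samples from being left out 1 at a time. Of 102 counts of changed members recomputed under the alternatives, 91 stayed within 1.5 times the reported count. For 96 h against 0 h, 25 members were called, and 14 with 24 h as the start (12 higher and 2 lower), an alternative chosen after seeing the data. In the –dox cells from 48 h, 13 were called, 22 at 1.5-fold and 8 at 3-fold. With dox after 0 h, 4 were called, 8 with no minimum, 12 at 1.5-fold, 2 at 3-fold and 2 without long non-coding and overlapping genes, which kept 29 members. After 24 h, 5 were called, 2 at 3-fold and 3 without those genes, and after 48 h, 7 were called, 14 at 1.5-fold and 4 without those genes. The causes were not tested beyond what each alternative changes. Over the 123 called ratios of single members, 468 of 492 recomputed values stayed past 2-fold, 24 fell below it and 0 changed direction. Of the 24, 15 came from adding 1 FPKM, 2 from adding 0.1 FPKM and 7 from scaling to the same sum of FPKM, which shifted log2 ratios by between -0.23 and 0.27. Median-ratio scaling moved none below 2-fold.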

Other observations

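A further 32 imprinted genes outside the 42 were found in the table, of 36 listed. In the time course 20 of the 23 that reached 1 FPKM there changed at least 2-fold, beside 60.7% of all genes. At 96 h compared with 0 h, 5 of 22 were higher and 6 were lower, beside 16.8% and 16.4% of all genes. In the –dox cells from 96 h compared with 0 h, 7 of 20 were higher and 6 were lower, beside 21.5% and 21.7%. With dox after 96 h 0 of 17 were higher and 5 were lower, beside 6.67% and 11.1%. The gene of this list with the highest value was Slc38a4, an amino acid transporter used in the placenta, which was at 56.5, 15.4 and 30.3 FPKM after 0, 48 and 96 h. Its level was 66.3 FPKM in the 0 h –dox cells, 173 FPKM in the 96 h –dox cells and 102 FPKM with dox. Copg2, a coat protein gene that overlaps Mest, was at 44.9 and 86.2 FPKM after 0 and 96 h, within 2-fold. Jade1 was at 72.7 and 29.7 FPKM, lower at 96 h, while Gab1, at 58.7 and 47.0, and Nap1l4, at 60.8 and 63.7, were within 2-fold.

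After 48 h of differentiation Zfp57 was at 154 FPKM with dox and 62.1 FPKM without it. At that time 2 of the 10 imprint maintenance genes, Zfp57 among them, were higher with dox and 0 were lower, beside 6.56% and 6.46% of all genes. With 10 genes these counts say little.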
